A study of Mus musculus with 4 samples.

Results

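Calcineurin, the nuclear factor of activated T cells (NFAT) and store-operated calcium entry form 1 signalling route, described here by 10 genes chosen by name out of 55401 gene models in the deposited FPKM tables. They are the NFAT genes Nfatc1, Nfatc2 and Nfatc3, the calcineurin genes Ppp3ca, Ppp3cb and Ppp3r1, the calcineurin inhibitor gene Rcan1, and the calcium genes Orai1, Stim1 and Itpr1. All 10 names matched exactly 1 gene model each. The libraries come from group 2 innate lymphoid cells (ILC2s), antigen-receptor-free lymphocytes that make type 2 cytokines, purified from lungs of C57BL/6 mice. Both groups received the alarmin IL-33 for 6 h, either alone or together with angiotensin II (Ang II), the peptide hormone of the renin-angiotensin system. Each group has 2 libraries, each made from 500 cells by amplifying cDNA. The sources used here give no mouse age, pooling of animals or untreated group, so a level under IL-33 alone is the reference throughout.

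As background, a receptor that activates phospholipase C, such as a G protein-coupled angiotensin receptor, makes inositol trisphosphate (IP3), which opens IP3 receptors in the endoplasmic reticulum. STIM proteins sense the emptied store and open ORAI channels in the plasma membrane, and the calcium that enters binds calmodulin. Calmodulin switches on calcineurin, a phosphatase built from a catalytic A subunit and a regulatory B subunit, which dephosphorylates NFAT proteins so that they enter the nucleus. In lymphocytes NFAT then acts on cytokine genes, often beside AP-1 proteins. This route works through calcium and phosphorylation, so the RNA levels below describe how much of each transcript was listed and not how active the route was.

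The libraries of each group were compared first. FPKM, a fragment count divided by transcript length and library size, is a level per length, so it can be compared between genes, but the files hold no counts and the depth is unknown. Over the 9215 genes that averaged 1 FPKM or more and were tested, log2(FPKM + 1) correlated at Pearson r = 0.994 between the IL-33 libraries, at 0.568 between the Ang II libraries and at 0.556 to 0.567 across groups. Of genes at 5 FPKM or more in at least 1 library of a pair, 0.184% of 5447 were under 0.1 FPKM in the other IL-33 library, against 31.4% of 6553 in the Ang II pair. The IL-33 spread was 1.09 times the counting noise at the depth that detection of low genes implied, and the Ang II spread 9.24 times. That depth was estimated from the IL-33 pair itself, so the ratio of that pair is in part built in. The rule set beforehand made the pair 1 sample if its spread was under the noise, and 2 replicates otherwise. At 1.09 times it lay slightly above. Its mean was still entered as a single sample, following earlier results of these data. The tests compare n = 1 with n = 2 and assume for IL-33 the spread of the Ang II libraries. The fit with 2 IL-33 replicates, which that rule called for, is given as an alternative. ILC2 markers were present in both groups, their 11 genes summing to 1736 and 1742 FPKM with IL-33 and to 1792 and 1805 FPKM with Ang II, with Thy1 near 0 in all 4 libraries. Id2 and Icos were the most abundant, so the sum says little of the others. Of 10 tested, 3 were higher in both Ang II libraries, 0 lower and 7 overlapping, beside 24.4% higher and 33.5% lower of all tested genes. Id2 read 741 and 746 against 760 and 489 FPKM. Kit, chosen after its values were seen, read 6.17 and 5.75 against 6.26 and 0.01 FPKM. T cell markers, which bear on a route best known from T cells, were lower in both Ang II libraries for 8 of 8 tested genes. Of all tested genes 33.5% were lower in both. Among protein-coding genes with an IL-33 mean of 3 FPKM or more, where these 8 lie, the share was 42.5% to 52.3% by level. With so few genes the count is no result about T cells. Trbc2 and Trbc1 were the most abundant, and the 10 listed genes summed to 1263 and 1260 FPKM against 926 and 456 FPKM. Macrophage, monocyte and dendritic cell markers, led by Lyz2 and Chil3, summed to 2086 and 2051 FPKM with IL-33, 2034 FPKM in Ang II library 1 and 916 FPKM in Ang II library 2. The members of that sum went different ways, as Lyz2 was lower with Ang II (1700 and 1668 against 1016 and 683 FPKM) and Chil3 overlapped (212 and 210 against 696 and 158 FPKM), while Adgre1, at 24.2 and 23.6 against 0.06 and 0.04 FPKM, and Marco, listed at 0 against 191 and 23.2 FPKM, were chosen after their values were seen. Itgax and Flt3, of the same macrophage list, were at 0 in all 4 libraries, and Csf1r and Mrc1 at 0.13 FPKM at most. Epithelial markers, led by Scgb1a1 and Sftpc, summed to 354, 345, 80.1 and 189 FPKM. Of that list Epcam read 16.8 and 19.2 against 0 and 13.0 FPKM. Sftpb and Krt8 were at 0 in all 4 libraries, and Cdh1 at 0.04 FPKM at most. Markers of B cells (Cd79b and Ighm the most abundant), NK cells and ILC1s (Gzma and Klrk1), mast cells and basophils (Mcpt8 and Cpa3) and stroma (Pecam1 and Col1a1) summed to 92.2 FPKM or less in any library, with Ncr1, Klrb1c, Tbx21, Fcer1a, Ms4a2 and Cdh5 at 0 in all 4. Haemoglobin genes, led by Hba-a2 and Hba-a1, took 5.83% and 5.78% of summed FPKM with IL-33 and 0.897% and 0.401% with Ang II. The part of these transcripts in the values below was not tested. In bulk libraries fewer cells of a type and less RNA per cell cannot be told apart.

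The 10 genes spanned a wide range of abundance. Orai1 stood above 100 FPKM in every library. Ppp3r1 lay between 5.97 and 31.5 FPKM, and Ppp3ca, Ppp3cb and Nfatc2 reached between 2.97 and 5.89 FPKM in their highest library. Itpr1 stood near 1 FPKM, and Nfatc1, Nfatc3, Rcan1 and Stim1 stayed under 1 FPKM in all 4 libraries. Of the 10, 5 met the minimum for testing: Orai1, Ppp3r1, Ppp3ca, Ppp3cb and Nfatc2. Ppp3cb met it through its IL-33 values alone, which fixed the direction of its change.

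**Figure D1:**
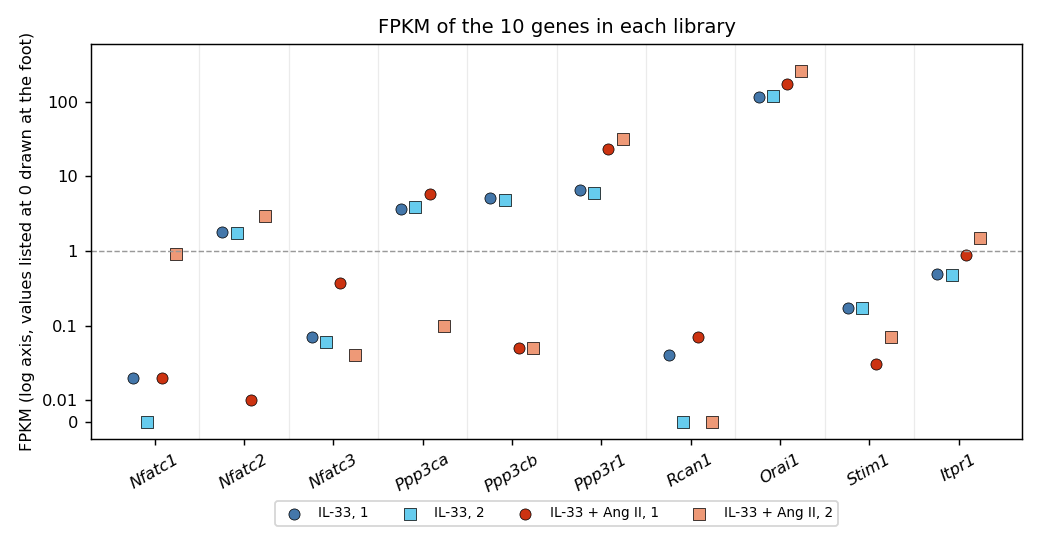
FPKM of the 10 genes (log axis, values listed at 0 drawn at the foot) in the 2 IL-33 libraries (blue) and the 2 IL-33 plus Ang II libraries (red), with the dashed line at 1 FPKM. Orai1 and Ppp3r1 are higher and Ppp3cb lower in both Ang II libraries, while Ppp3ca and Nfatc2 are near 0 in a single Ang II library each.

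No member differed past an adjusted p of 0.05 (limma with Benjamini-Hochberg adjustment over all tested genes, two-sided). The share of all tested genes past that threshold was 0%, and 1253 genes (13.6%) had an unadjusted p under 0.05, among them 1 member, Ppp3cb. Of the 5 tested members, 2 had both Ang II values above both IL-33 values (Orai1 and Ppp3r1), as did 24.4% of all tested genes. Another 1 of the 5, Ppp3cb, had both below, as did 33.5% of all tested genes. With so few members these counts are no result about the list. Its median log2 fold change was -0.47, beside 0.00 over all tested genes. In the separate Ang II libraries the members' median was 0.53 and 0.52, of the opposite sign, because a different gene was low in each.

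Sequence around 4 gene starts is shown, that of the classic calcineurin and NFAT target and those of the 3 tested members whose groups did not overlap. Each runs from 250 bases before to 50 bases after a RefSeq start on GRCm38.p6, the assembly of mm10, read 5′ to 3′ on the strand of its gene. The NFAT core letters GGAAA, and TTTCC where the core lies on the other strand, are in capitals. The inner Rcan1 start lies at chr16:92400029-92400328 on the minus strand, Ppp3cb at chr14:20546524-20546823 on the minus strand, Ppp3r1 at chr11:17159048-17159347 on the plus strand and Orai1 at chr5:123014824-123015123 on the plus strand.
Rcan1, inner start: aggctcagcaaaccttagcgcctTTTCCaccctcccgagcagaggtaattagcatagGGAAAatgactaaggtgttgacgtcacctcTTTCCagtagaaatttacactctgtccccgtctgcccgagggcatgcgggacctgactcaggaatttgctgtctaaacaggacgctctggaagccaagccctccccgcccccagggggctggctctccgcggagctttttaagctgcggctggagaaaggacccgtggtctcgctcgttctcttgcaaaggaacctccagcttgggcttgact
Ppp3cb: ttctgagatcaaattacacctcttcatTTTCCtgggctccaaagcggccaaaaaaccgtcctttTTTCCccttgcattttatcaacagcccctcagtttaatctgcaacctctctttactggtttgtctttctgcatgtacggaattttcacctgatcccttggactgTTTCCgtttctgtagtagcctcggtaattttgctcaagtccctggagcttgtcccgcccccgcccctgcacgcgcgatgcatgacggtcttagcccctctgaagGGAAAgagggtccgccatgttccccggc
Ppp3r1: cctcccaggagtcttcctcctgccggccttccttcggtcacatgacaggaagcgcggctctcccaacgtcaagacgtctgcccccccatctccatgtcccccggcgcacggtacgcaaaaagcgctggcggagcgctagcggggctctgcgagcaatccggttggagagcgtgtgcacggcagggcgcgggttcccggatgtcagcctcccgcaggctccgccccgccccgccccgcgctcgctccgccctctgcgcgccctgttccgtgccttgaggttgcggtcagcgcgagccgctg
Orai1: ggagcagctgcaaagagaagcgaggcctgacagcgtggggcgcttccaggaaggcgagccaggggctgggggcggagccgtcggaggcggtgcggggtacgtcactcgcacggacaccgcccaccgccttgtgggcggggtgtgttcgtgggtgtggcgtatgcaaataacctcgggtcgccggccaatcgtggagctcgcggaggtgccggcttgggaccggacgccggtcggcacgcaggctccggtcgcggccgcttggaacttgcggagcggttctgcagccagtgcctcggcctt

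The inner Rcan1 stretch holds 3 matches to the NFAT core, 1 to the AP-1 letters TGANTCA and 1 to the cyclic AMP response element TGACGTCA, with both strands searched. Its outer start, at chr16:92466120-92466419, holds 0 matches to the NFAT core. Ppp3cb holds 4, and Ppp3r1 and Orai1 hold 0 each. Over 32851 promoter entries of this length, 61.3% hold at least 1 NFAT core, 9.42% at least 3 and 2.65% at least 4, while 7.81% hold the AP-1 letters and 1.79% the cyclic AMP element. Ppp3r1 and Orai1 share a GC content of 70.7% and 70.3% with 36 CpG dinucleotides each, above the median entry (52.7% and 7). Ppp3cb has 51.0% and 13. A match is only a run of letters, and a window without one says nothing of a factor elsewhere. Entries were used for 7 members, and Nfatc1, Ppp3ca and Itpr1 are named only.

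Orai1 encodes the pore subunit of the calcium release-activated channel in the plasma membrane. Its level was 115 and 120 FPKM under IL-33 alone and 174 and 263 FPKM where Ang II was added. Both Ang II values lay above both IL-33 values, 1.48 and 2.24 times the IL-33 mean, yet the Ang II libraries differed from each other by 1.51 times. The log2 fold change was 0.86 (SE 0.42, n = 1 and 2), short of the threshold in limma (adjusted p = 0.743). Of 635 protein-coding genes with an IL-33 mean of 100 FPKM or more, 23.9% were likewise higher in both Ang II libraries and 42.5% were lower. Orai1 (ENSMUSG00000049686) lies on chromosome 5, 123015074 to 123030456, on the plus strand, with 2 exons in its longest annotated transcript. An antisense gene model, Gm2479, overlaps it. That model was listed at 0 in 3 libraries and at 2.29 FPKM in Ang II library 1, and without a stated strand the reads of such a pair cannot be told apart.

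Orai1 made up nearly all of the listed ORAI transcript level. Its share of the summed FPKM of Orai1, Orai2 and Orai3 was 99.97%, 99.92%, 99.95% and 98.9% in IL-33 libraries 1 and 2 and Ang II libraries 1 and 2. Orai2 reached 2.93 FPKM in Ang II library 2 and 0.04 FPKM or less elsewhere, while Orai3 and Cracr2a, the gene of a channel regulator, reached 0.07 and 0.16 FPKM at most. Against this channel, the store sensors that open it were scarcely listed. Stim1 stood at 0.17 FPKM in both IL-33 libraries, with 0.03 and 0.07 FPKM where Ang II was added, and Stim1 plus Stim2 summed to 0.17, 0.20, 0.06 and 0.07 FPKM. Both Ang II values of Stim1 lay below the IL-33 values, at levels far under the minimum for testing. Saraf, which encodes a protein that slows store-operated entry, was abundant, at 230 and 227 FPKM with IL-33 and 105 and 238 FPKM with Ang II, and its groups overlapped.

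Itpr1 encodes an IP3 receptor, the channel through which the store is emptied. It read 0.49 and 0.48 FPKM under IL-33 alone against 0.88 and 1.51 FPKM where Ang II was added. Both Ang II values were higher, by 1.81 and 3.11 times the IL-33 mean, but its mean over the columns compared fell just short of 1 FPKM and it was not tested. The related receptor gene Itpr2, outside the members, carried most of the listed IP3 receptor level, 86.8% and 85.6% of the summed Itpr1, Itpr2 and Itpr3 FPKM with IL-33 and 73.7% and 81.5% with Ang II. Itpr2 read 3.35 and 3.10 FPKM without Ang II and 4.10 and 6.70 FPKM with it, a difference of 0.57 on the log2 scale (SE 0.76, limma adjusted p = 0.775). The sum of the 3 receptor genes was 3.86 and 3.62 FPKM with IL-33 and 5.56 and 8.22 FPKM with Ang II, so the groups did not overlap, at low levels.

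Ppp3r1 encodes calcineurin B, the calcium-binding regulatory subunit. Its level was 6.58 and 5.97 FPKM under IL-33 alone and 23.7 and 31.5 FPKM where Ang II was added. Both Ang II values were above both IL-33 values, by 3.77 and 5.03 times the IL-33 mean, and the Ang II libraries differed from each other by 1.33 times. The log2 fold change was 1.96 (SE 0.49), and the adjusted p was 0.429 in limma. With the IL-33 libraries counted as 2 replicates it would be 0.0306, a value that treats their near-identical levels as the spread between samples. Of 913 protein-coding genes with an IL-33 mean of 3 to 7 FPKM, 34 (3.72%) stood at 3 or more times the IL-33 mean in both Ang II libraries, a limit chosen after the values were seen. Ppp3r1 (ENSMUSG00000033953) lies on chromosome 11, 17159263 to 17200375, on the plus strand. It shares 462 of its 3228 exonic bases with Wdr92, a gene on the same strand, so the authors' counting could have split fragments between them. Wdr92 read 24.8 and 25.1 FPKM under IL-33 alone against 0.03 and 24.96 FPKM where Ang II was added. The FPKM of both genes together came to 31.4 and 31.1 with IL-33 and to 23.7 and 56.5 with Ang II, and overlapped. FPKM is a level per length, so this sum does not measure shared fragments. It cannot show whether Ppp3r1 itself differed. As Wdr92 was near 0 in Ang II library 1 alone, the level of Ppp3r1 there is uncertain. How the overlap bears on that level was not tested. In Ang II library 2, where Wdr92 was at 24.96 FPKM, Ppp3r1 stood at 31.5 FPKM.

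The catalytic subunit genes showed another pattern. Ppp3cb, which encodes the beta form of calcineurin A, had 5.09 and 4.77 FPKM under IL-33 alone and the same 0.05 FPKM in each library where Ang II was added. The groups did not overlap. The limma adjusted p of 0.174 was the smallest among tested genes, but many of them share it, so it does not set Ppp3cb apart. The log2 fold change was -2.50 (SE 0.23). Because the Ang II values were the same, that error rests on the spread of other genes. Ppp3cb met the minimum for testing through its IL-33 values alone, so that its direction was fixed by the filter. With the IL-33 libraries counted as 2 replicates the adjusted p would be 0.0149. Ppp3ca, which encodes the alpha form, stood at 3.70 and 3.87 FPKM with IL-33, at 5.89 FPKM in Ang II library 1 and at 0.10 FPKM in Ang II library 2. Its groups overlapped, and its log2 fold change of -0.80 (SE 1.78, adjusted p = 0.857) came from library 2 alone, with 0.53 in library 1 and -2.12 in library 2. Ppp3cc, the catalytic gene best known from testis, was at 0.03 FPKM or less in every library.

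Values near 0 like that of Ppp3cb were common in the Ang II libraries at this level of expression. Among the 913 protein-coding genes at 3 to 7 FPKM with IL-33, the band that also holds Ppp3ca and Ppp3r1, 218 (23.9%) were under 0.1 FPKM in both Ang II libraries and 31.2% in 1 of them, while 0.657% were under it in an IL-33 library. Among the 635 genes at 100 FPKM or more, where Orai1 lies, these shares were 0% and 1.57%. Of all tested genes, 737 were under 0.1 FPKM in both Ang II libraries, 2123 in library 1 alone and 957 in library 2 alone. Ppp3cb is 1 of those 737. Among genes at 3 to 7 FPKM with IL-33, the share near 0 in both Ang II libraries was 25.6% for longest transcripts of 2500 to 4000 bases, the class of Ppp3cb, 40% under 1500 bases and 14% at 6000 bases or more. The part of this general pattern in the Ppp3cb value was not tested. Ppp3ca in Ang II library 2, at 0.10 FPKM, lies on the limit and is not in these counts.

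**Figure D2:**
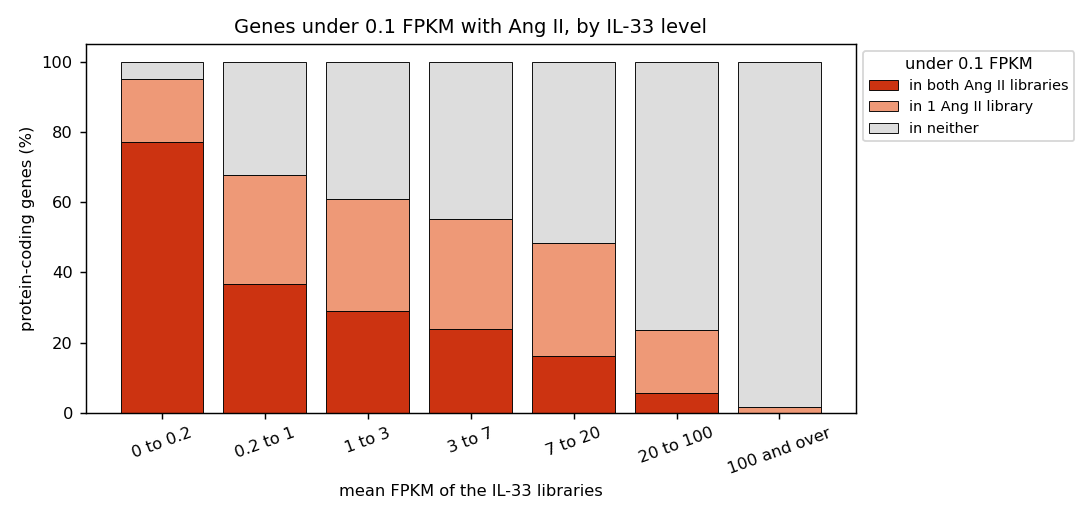
Share of protein-coding genes (vertical axis, percent) under 0.1 FPKM in both, in 1 or in neither Ang II library, by the mean FPKM of the IL-33 libraries (horizontal axis). The share under 0.1 FPKM in both falls from 23.9% at 3 to 7 FPKM, the level of the 3 calcineurin genes, to 0% at 100 FPKM or more, the level of Orai1.

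Set side by side, the summed catalytic transcripts were lower and the listed level of the regulatory one higher in both Ang II libraries. The 3 catalytic genes summed to 8.81 and 8.67 FPKM with IL-33 and to 5.97 and 0.18 FPKM with Ang II, so both Ang II sums were lower. In library 1 this came from Ppp3cb alone, as Ppp3ca was at 5.89 FPKM there, above its IL-33 values. Values near 0 were common at this level, in both Ang II libraries for 23.9% of genes and in 1 of them for 31.2%. The part of that general pattern in these sums was not tested. Ppp3r1 was 0.747 and 0.689 times that sum with IL-33 and 3.96 times in Ang II library 1, a ratio that rests on the Ppp3r1 value made uncertain by Wdr92. In Ang II library 2 the ratio was 175, with a catalytic sum so low that the ratio has little meaning as a size. Summed over A and B genes, the level was 15.4 and 14.6 FPKM with IL-33 and 29.6 and 31.7 FPKM with Ang II, nearly all of it Ppp3r1 in library 2, and the 29.6 FPKM of library 1 carries the same uncertainty.

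**Figure D3:**
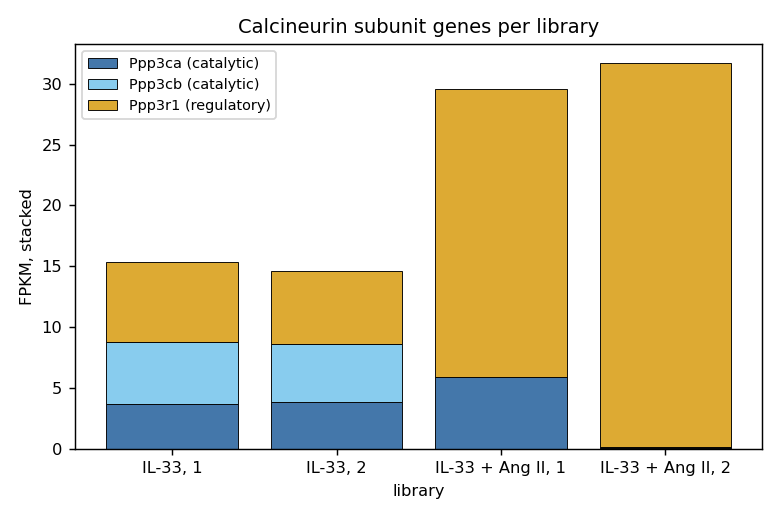
Stacked FPKM (vertical axis) of the catalytic genes Ppp3ca and Ppp3cb and the regulatory gene Ppp3r1 in each of the 4 libraries. Ppp3cb is visible in the IL-33 libraries alone, Ppp3ca is barely visible in Ang II library 2 (0.10 FPKM), and Ppp3r1 is 23.7 and 31.5 FPKM in the Ang II libraries.

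Of the NFAT genes, Nfatc2 was the one with listed levels above 1 FPKM. Its product, NFAT1, is a main NFAT of lymphocytes. It stood at 1.80 and 1.74 FPKM with IL-33, at 0.01 FPKM in Ang II library 1 and at 2.97 FPKM in Ang II library 2. The Ang II values lay on both sides of the IL-33 values, and the log2 fold change was -0.47 (SE 1.31, limma adjusted p = 0.882). Nfatc1, whose product is known for raising its own transcription in activated lymphocytes, was listed at 0.02 and 0 FPKM under IL-33 alone against 0.02 and 0.92 FPKM where Ang II was added. Nfatc3 read 0.07 and 0.06 FPKM under IL-33 alone against 0.37 and 0.04 FPKM where Ang II was added. Both genes overlapped between groups, and each was highest in a different Ang II library. The 4 calcium-regulated NFAT genes together came to 1.90 and 1.80 FPKM with IL-33 and to 0.40 and 3.93 FPKM with Ang II, and the library with more NFAT transcript was the one where Ppp3ca read 0.10 FPKM.

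Rcan1 encodes regulator of calcineurin 1, which binds and inhibits calcineurin and whose short form is transcribed from an inner start in response to NFAT. It was listed at 0.04 and 0 FPKM under IL-33 alone against 0.07 and 0 FPKM where Ang II was added. No difference was detectable at such values, and a listed 0 need not mean absence. Its relative Rcan3, outside the members, was listed at 0 and 0.04 FPKM under IL-33 alone against 14.4 and 7.61 FPKM where Ang II was added, without overlap (log2 fold change 3.50, SE 0.85, limma adjusted p = 0.414). Rcan3 met the minimum for testing through its Ang II values alone, which fixed the direction of that change. Among 15469 protein-coding genes under 0.2 FPKM with IL-33, 1.46% stood at 5 FPKM or more in both Ang II libraries. Of the same genes 77.2% were under 0.1 FPKM in both Ang II libraries. The 1.46% is thus taken mostly over genes near 0 in every library and does not measure how unusual Rcan3 is.

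**Figure D4:**
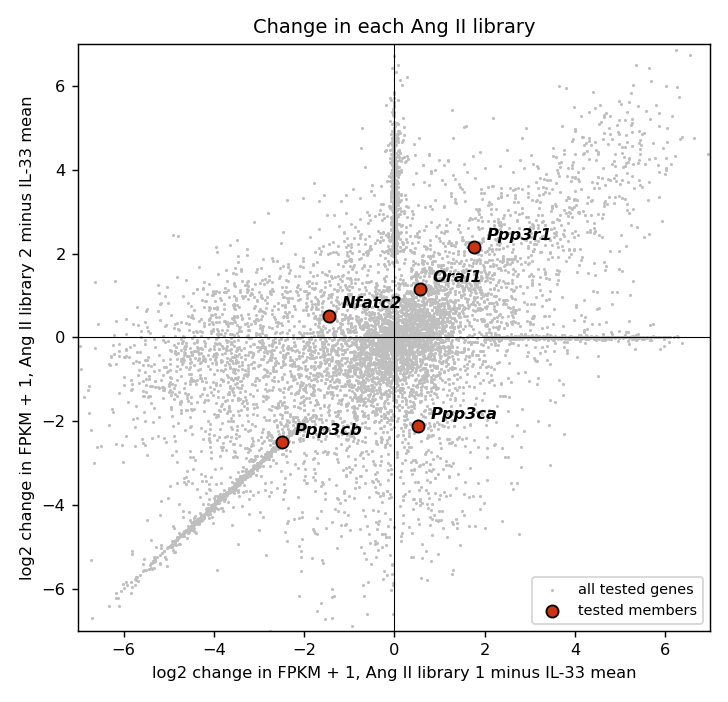
Change in log2(FPKM + 1) from the IL-33 mean in Ang II library 1 (horizontal axis) and Ang II library 2 (vertical axis) for the 9215 tested genes (grey, 11 outside the axes) and the 5 tested members (red). Orai1 and Ppp3r1 are positive in both, Ppp3cb lies on the diagonal of genes near 0 in both Ang II libraries, and Ppp3ca and Nfatc2 have opposite signs in the libraries.

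The rest of the route was read from 8 lists of other genes, 78 in all, of which 38 were tested. In both Ang II libraries 15 of these 38 were higher and 11 lower, against 24.4% and 33.5% of all tested genes, and 0 passed the adjusted threshold (limma), with 6 at an unadjusted p under 0.05. Their median log2 fold change was 0.48, and 0.21 and 0.09 in the separate Ang II libraries. An average under 1 FPKM with IL-33 was found for 8 of the 38 (Rcan3, Maf, Chp1, Camk1, Plcb3, Atp2a2, Il9 and Tnfsf11), and 3, Csnk1e and Itpkb among them, averaged under 1 FPKM with Ang II. These 11 met the minimum through a single group, which fixed the group with the higher mean, so the counts and the median support no direction. The lists were drawn up with earlier results known, so their direction is no independent evidence. With so few genes in each list, the counts per list below are no result about that list.

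Upstream of the store, the genes that make, bind or consume IP3 were mostly too low to test. Of 10 genes in that list 3 were tested, 1 higher (Itpr2), 1 lower (Itpkb) and 1 overlapping (Plcb3). Itpkb, which encodes a kinase that converts IP3 and so removes it, read 5.23 and 4.77 FPKM under IL-33 alone against 0.85 and 0.17 FPKM where Ang II was added (log2 fold change -2.03, SE 0.55, adjusted p = 0.457). Plcb3, a phospholipase C gene downstream of G proteins, was at 0.08 and 0.07 FPKM against 0.01 and 3.66 FPKM. Plcb4 read 0.01 FPKM in IL-33 library 1 and 3.10 FPKM in IL-33 library 2, unlike nearly all genes of that pair.

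Among calcium pumps and membrane channels, both Ang II values lay above the IL-33 values for 3 of 7 tested genes and below them for 3. These shares were 24.4% and 33.5% over all tested genes. Kcnn4, the potassium channel that keeps the membrane polarised while calcium enters, read 8.91 and 9.24 FPKM under IL-33 alone against 18.8 and 39.9 FPKM where Ang II was added (log2 fold change 1.50, SE 0.78, adjusted p = 0.770). Trpv2, a cation channel gene, stood at 36.5 and 37.5 FPKM against 6.46 and 67.4 FPKM and overlapped. Tmco1, which encodes a calcium leak channel of the endoplasmic reticulum, was at 14.7 and 16.8 FPKM against 0.04 and 6.99 FPKM. Like Ppp3ca and Nfatc2, Trpv2 and Tmco1 differed widely between the Ang II libraries. Mcu, the pore of the mitochondrial calcium uniporter, was at 13.7 and 13.8 FPKM against 0 and 11.1 FPKM. Atp2a2, chosen after its values were seen, encodes the pump that refills the store and was at 0.06 and 0.07 FPKM against 21.9 and 2.63 FPKM.

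Transcript for calmodulin, the calcium sensor that activates calcineurin, was abundant in every library. Calm2 stood at 283 and 311 FPKM against 623 and 443 FPKM, higher in both (log2 fold change 0.82, SE 0.35, adjusted p = 0.670). Calm3 was at 46.1 and 46.4 FPKM against 85.98 and 48.7 FPKM. Camk4, which encodes a calmodulin-dependent kinase, was at 20.5 and 22.4 FPKM with IL-33 and listed at 0 and 15.9 FPKM with Ang II. Of the 6 tested genes in this list, 2 were higher and 3 lower in both, beside 24.4% and 33.5% of all tested genes.

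The targets of calcineurin inhibitor drugs and the kinases that return NFAT to the cytoplasm were also listed. Ppia, which encodes the cyclophilin that cyclosporin binds, stood at 271 and 257 FPKM against 294 and 270 FPKM and overlapped, with many processed copies in the genome that make its counting uncertain, and Fkbp1a, the binding partner of tacrolimus, at 25.5 and 27.0 FPKM against 27.4 and 12.6 FPKM. Chp1, a calcineurin B homologue gene, was at 0.09 and 0.11 FPKM against 0.07 and 4.51 FPKM. Of 4 tested NFAT kinase genes 2 were higher and 1 lower in both, beside 24.4% and 33.5% of all tested genes. Gsk3b read 2.39 and 2.10 FPKM without Ang II and 19.1 and 9.13 FPKM with it, a difference of 2.14 on the log2 scale (SE 0.86, adjusted p = 0.639). Csnk1d, a casein kinase gene, stood at 22.6 and 24.0 FPKM against 30.4 and 44.8 FPKM. Csnk1e, which encodes a close relative, went the other way, from 15.0 and 14.1 FPKM to 1.83 and 0.07 FPKM (log2 fold change -3.16, SE 1.07, adjusted p = 0.554). Csnk1a1 overlapped, at 21.4 and 19.1 FPKM against 8.43 and 21.9 FPKM.

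Of 8 other NFAT genes and partners of NFAT, among them the AP-1 genes, 4 were tested and 3 of these were higher in both Ang II libraries, beside 24.4% of all tested genes. None of the 4 passed the adjusted threshold in limma, and 2 had an unadjusted p under 0.05. Fos read 99.5 and 100.1 FPKM under IL-33 alone against 221 and 242 FPKM where Ang II was added (log2 fold change 1.20, SE 0.21, adjusted p = 0.298). Jun read 34.8 and 36.2 FPKM without Ang II and 103 and 183 FPKM with it, a difference of 1.92 on the log2 scale (SE 0.58, adjusted p = 0.502). Maf, which encodes a transcription factor of type 2 cytokine genes, stood at 0.18 and 0.14 FPKM against 9.81 and 9.93 FPKM. These 3 of 4 tested partners did not overlap between groups, and Batf did, at 49.6 and 51.4 FPKM against 193 and 39.9 FPKM. Maf met the minimum for testing through its Ang II values alone, so that its direction was fixed by the filter.

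Genes known to respond to NFAT in lymphocytes did not share a direction. Of 17 such genes besides Rcan1, 9 were tested, 3 higher (Il9, Nr4a1 and Cd69), 3 lower (Il2, Il13 and Tnf, chosen after their values were seen) and 3 overlapping. Over all tested genes 24.4% were higher and 33.5% lower. Cd69, which encodes an early activation marker, read 18.4 and 16.9 FPKM under IL-33 alone against 163 and 128 FPKM where Ang II was added (log2 fold change 2.97, SE 0.33, adjusted p = 0.176). Il9 read 0.52 and 1.00 FPKM under IL-33 alone against 1310 and 1483 FPKM where Ang II was added (log2 fold change 9.63, SE 0.23, limma adjusted p = 0.174). It met the minimum for testing through its Ang II values alone, so that its direction was fixed by the filter. The nuclear receptor gene Nr4a1 (log2 fold change 3.65, SE 0.48, adjusted p = 0.214) was higher as well. Csf2, the most abundant gene of this list with IL-33, overlapped, at 913 and 891 FPKM against 1819 and 731 FPKM. Il2 was at 14.2 and 13.9 FPKM against 1.01 and 11.9 FPKM. Egr2 and Egr3, known NFAT targets in T cells, reached 1.08 and 0.01 FPKM at most.

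**Figure D5:**
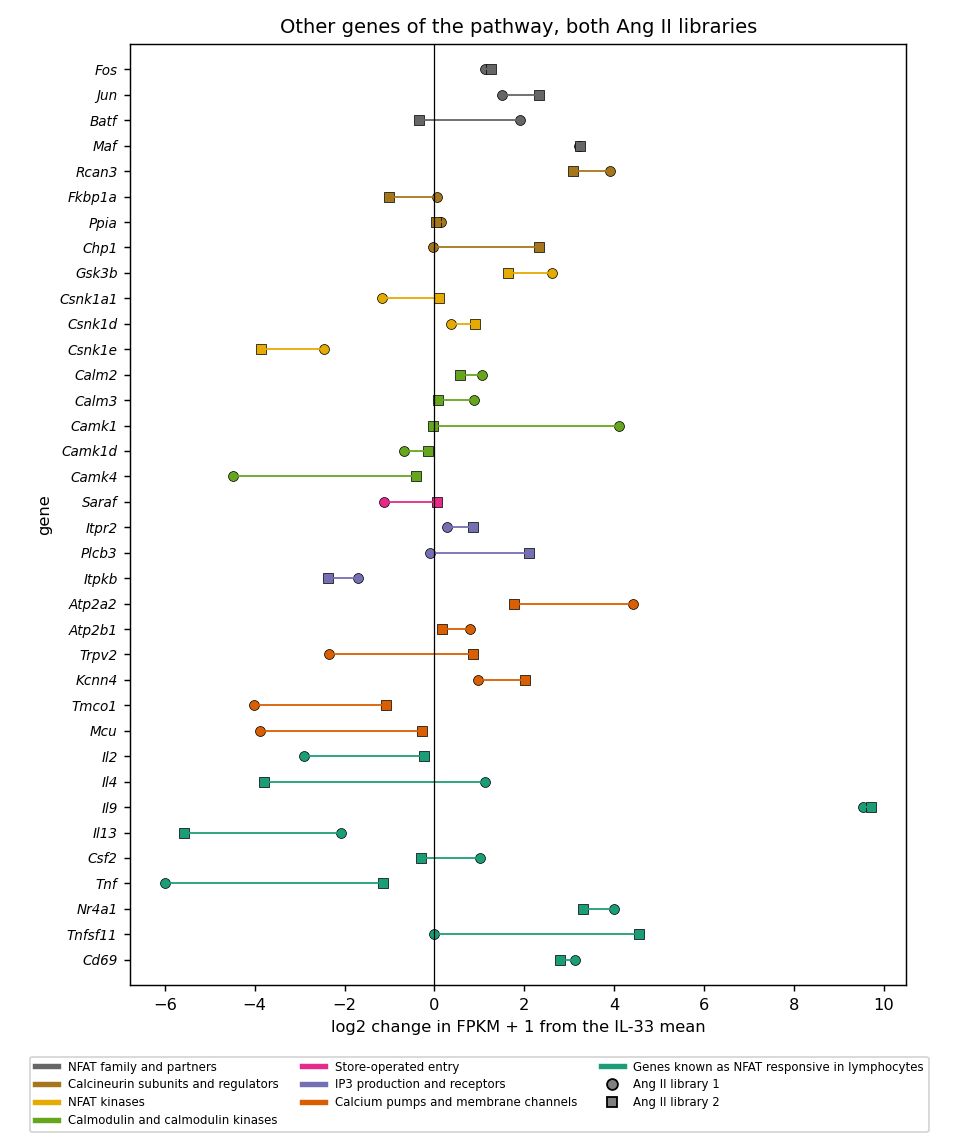
Change in log2(FPKM + 1) from the IL-33 mean (horizontal axis) in Ang II library 1 (circles) and Ang II library 2 (squares) for 36 of the 38 tested genes of the route outside the 10 members, coloured by role. Genes above 0 in both libraries include Fos, Jun, Maf, Rcan3, Gsk3b, Kcnn4, Nr4a1, Cd69 and Il9. Those below 0 in both include Csnk1e, Itpkb, Camk4, Camk1d, Tmco1, Mcu, Il2, Il13 and Tnf. The minimum for testing fixed the direction of Maf, Rcan3, Il9, Csnk1e and Itpkb. Long lines mark genes on which the libraries differed.

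The tested genes most like Ppp3r1 and Orai1 over the 4 libraries were found by Euclidean distance in log2(FPKM + 1). For Ppp3r1 they were Meis3 (distance 0.356) and Taf8 (0.371), and for Orai1 Ghitm (0.291) and Rrad (0.394). Meis3 read 5.70 and 6.78 FPKM under IL-33 alone against 28.0 and 29.0 FPKM where Ang II was added. Ghitm stood at 129 and 127 FPKM against 201 and 246 FPKM. With 4 libraries in 2 groups, many genes can lie this close, and nothing follows from the likeness.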

How the data were processed

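RNA was sequenced from 4 libraries of 500 purified ILC2s each, with cDNA made by a SMARTer kit and amplified by PCR, per the labels' protocols. Without named molecular identifiers, copies made by PCR stay in the values. The deposited unit is FPKM per gene, made by the authors and written with 2 decimals, per the file headers, and both Ang II columns come from 1 table. The submitters' processing notes name mm10, HISAT, StringTie and edgeR without version or role; annotation and strand setting, not given in the sources used here, could change the values of overlapping genes. Depth is unknown, so no interval or floor is given.

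Of 55401 gene models, 55141 were found by identifier in GENCODE M21. The 9215 genes averaging 1 FPKM or more over the IL-33 mean and both Ang II columns were tested on log2(FPKM + 1), which understates the change of low genes, with limma 3.58.1 in R 4.3.3 (mean-variance trend, 1 residual degree of freedom, Benjamini-Hochberg adjustment). Fold changes are on that scale. The fit was tested on simulated data with an SD of 0.3 (log2) for every gene, under the median of 0.861 between the Ang II libraries, so it checks the computation and not the power here. A gene is higher or lower in both when both Ang II values lie outside both IL-33 values. Counting noise was taken at a depth of 12420000 fragments, estimated from low genes listed at 0 in 1 IL-33 library. All 10 members are named, with the 4 most abundant genes of each role list, less genes not reported here, and the 2 most abundant of each other cell type; 1 listed name matched no row. Other settings were 12 planned ones and 1 added after seeing the data, scaling without haemoglobin genes. Members and lists were chosen with earlier results of these data known. No label ties a library to its own mouse or culture, so p-values measure only the spread between these libraries, which may be technical. No label says that the replicate numbers pair the libraries. The 2 within-group differences did not correlate across genes (Pearson r = -0.019). The IL-33 libraries differed by little more than counting noise, so this value could not show a pairing.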

Additional observations from a re-analysis of the deposited data

How the results depend on the processing

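Orai1 and Ppp3r1 stayed higher and Ppp3cb lower with Ang II in each of the settings in which they had a value (13, 13 and 12). The groups of these genes did not overlap. A change of pseudocount, minimum, block or IL-33 replication, or a library left out, could therefore not turn their direction. Only the rescalings could have done so. In the settings with a minimum for testing, that minimum fixed the direction of Ppp3cb. The log2 fold change ran from 0.56 to 1.15 for Orai1, from 1.52 to 2.16 for Ppp3r1 and from -5.07 to -0.98 for Ppp3cb, whose extremes came from pseudocounts of 0.1 and 5. With the IL-33 libraries counted as 2 replicates limma called 1665 of 9095 genes, among them Ppp3cb (log2 fold change -2.50, adjusted p = 0.0149) and Ppp3r1 (1.96, adjusted p = 0.0306). With a replicate block added to that limma fit, 0 genes passed (1877 at an unadjusted p under 0.05), with adjusted p = 0.164 for Ppp3cb and 0.196 for Ppp3r1. No label says that these numbers pair the libraries. The counts of genes outside the IL-33 range do not use the fit, so the block could not change them. Ppp3ca turned to 0.53 without Ang II replicate 2, against -2.12 without Ang II replicate 1, and Nfatc2 turned to 0.52 without Ang II replicate 1, so each rests on 1 library. The cause was not tested.

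The members' median log2 fold change, -0.47, was -1.69 and -0.10 with pseudocounts of 0.1 and 5, 0.092 with no filter on low values (10 members), 1.41 with a mean of at least 5 FPKM (2 members), 0.033 with libraries rescaled to 1000000 summed FPKM (6 members), -0.42 with upper quartile scaling and -0.45 with scaling without haemoglobin genes. Leaving out 1 library at a time it ranged from -0.48 to 0.54. With no filter 2 members and 17 other genes of the route were lower in both Ang II libraries, and with the minimum of 5 FPKM 0 members were. Leaving out 1 library at a time, between 1 and 2 members were lower, and between 15 and 23 other genes of the route were higher. No share of all genes is given for these settings, so these counts support no direction. Without an Ang II library the comparison has 1 sample a group and no test. Depth is unknown, and members under 1 FPKM allow no statement on a difference.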
